A study of Mus musculus with 12 samples.

Results

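Tspan9, Prag1, Lypd6b and Slc16a5 were the named genes that fell most in CD4+ T cells of B6 mice after anti-CD45RB and that were also low in SLE123 mice. They were chosen by these same measured values, so their levels in untreated B6, treated B6 and SLE123 are given as a description, with no test. The treated minus untreated difference within SLE123 was not used to choose them and was tested. A low level in SLE123, which leaves less room for a fall, was part of the choice. They are 4 of the 35275 genes in the deposited table, and all 4 were among the 13115 genes tested, those that averaged 0.5 FPKM or more.

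CD4+ T cells were obtained by negative magnetic sorting from female mice 9 to 12 weeks old, and each of the 12 mice gave 1 RNA-Seq library. The B6 group that received anti-CD45RB, the untreated B6 group, the treated SLE123 group and the untreated SLE123 group held 3 mice each. Treated mice received 5 intraperitoneal injections of 100 μg of the antibody clone MB23G2 between day 0 and day 7, and no control injection is named for the untreated mice. B6 is C57BL/6J, and SLE123 is a congenic strain on the B6 background with Sle1, Sle2 and Sle3, genome regions of the lupus-prone NZM2410 strain. The methods also describe a sort into CD25+ and CD25- cells, which the sample titles do not name. Values are FPKM, fragments scaled to the length of the transcript and to the mapped fragments of the library, so that levels of genes of different length can be compared. Differences are given on the scale of log2(FPKM + 1), which understates the change of a gene at low level.

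CD45 is the phosphatase that removes the inhibitory phosphate from Src-family kinases at the T cell receptor, and Csk is the kinase that places it. CD45RB is the form of CD45 that contains the alternatively spliced B segment and is abundant on naive CD4+ T cells. The genes described here are not known as one pathway. Tspan9 is a tetraspanin, a multi-pass membrane protein of a family that gathers receptors and adhesion molecules into membrane domains, and it is best known from platelets. Prag1, also called Pragmin, is a pseudokinase scaffold of the PEAK family that binds Csk. Lypd6b is a Ly6/uPAR domain protein held at the membrane by a lipid anchor and known as a modulator of nicotinic acetylcholine receptors. Slc16a5 belongs to the family of monocarboxylate transporters.

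The libraries held 13562933 to 23641603 fragments, so that a transcript 2000 bases long with 3 fragments would read 0.0634 to 0.111 FPKM. Some libraries stood apart. Liver transcripts were present in all 6 B6 libraries and in 1 SLE123 library, treated replicate 1, with a summed level of 46.4 to 55.6 FPKM over 10 liver genes, and were at 0.11 to 0.51 FPKM in the other SLE123 libraries. They thus went largely with strain. Any difference in sample handling that went with strain cannot be told apart from the strain differences given here, and it was not tested. Untreated SLE123 replicate 3 held the lowest summed naive T cell markers, 824 FPKM against 1279 and 1441 in the other untreated SLE123 mice, and the highest summed plasma cell markers, 5037 FPKM against 1949 and 2821. The treatment differences within SLE123 are therefore also given without each of these libraries. Without untreated replicate 3, the differences between the untreated strains were -1.76 for Tspan9, -0.83 for Prag1, -1.32 for Lypd6b and -2.21 for Slc16a5. Ptprc, the gene of CD45, was at 436 to 479 FPKM in treated B6, 507 to 542 in untreated B6, 470 to 498 in treated SLE123 and 328 to 492 in untreated SLE123. The sum of 9 CD4+ T cell markers was between 2561 and 3283 FPKM in every library.

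Tspan9 (ENSMUSG00000030352) lies on the minus strand of chromosome 6 at chr6:127961396-128143594 (GRCm38). RefSeq promoter sequence was at hand for 1 of the 4 genes, Tspan9, with 4 annotated starts. The 250 bases before the most upstream start are shown because the study's question turned to transcription factors of the CREB/ATF group, and they occupy chr6:128143579-128143828 on the minus strand (GRCm38.p6). Capitals mark the GC box, GGGCGG on either strand, read here as its complement.
Tspan9 promoter: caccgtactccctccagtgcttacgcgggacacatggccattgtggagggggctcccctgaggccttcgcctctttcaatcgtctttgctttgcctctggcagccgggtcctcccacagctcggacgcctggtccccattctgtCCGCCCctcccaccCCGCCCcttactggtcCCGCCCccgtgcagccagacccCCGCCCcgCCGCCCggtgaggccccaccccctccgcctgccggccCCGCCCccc
The window held 6 GC boxes and was 72% G and C. Of 32536 promoter windows in the same table, 33.0% held at least 1 GC box. The CREB/ATF octamer TGACGTCA, present in 1.56% of windows, and its shorter form TGACG, present in 17.9%, were not in these letters on either strand. Neither were the E-box CACGTG (6.04% of windows), the TATA box TATAAA (12.3%), the CCAAT box (33.8%) and the ETS core CCGGAA (12.1%). The windows of the other starts differ, with at least 1 CCAAT box at each of the other 3 and 1 GC box at start 4, and which start these cells use is not known.

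As a ratio of FPKM, Tspan9 was the member with the widest separation between untreated B6 and the other mice, while on log2(FPKM + 1) the strain difference of Slc16a5 was larger. In untreated B6 its level was 4.07, 4.07 and 3.95 FPKM, and in treated B6 it was 1.29, 1.01 and 1.23 FPKM. The spread of the untreated B6 mice was small, with 4.03 ± 0.0679 FPKM against 1.18 ± 0.150 FPKM in treated B6 (SD, n = 3). The treated B6 mean was 29.2% of the untreated mean, a 3.43-fold lower level, with a difference on log2(FPKM + 1) of -1.21 (SE 0.0812). Untreated SLE123 mice had 0.444, 0.518 and 0.388 FPKM, and treated SLE123 mice had 0.420, 0.347 and 0.471 FPKM. These values rest on 25 to 37 fragments per library, whereas those of untreated B6 rest on 243 to 281. Untreated SLE123 was at 11.2% of untreated B6, a difference of -1.80 (SE 0.0998). Treated B6 lay between the strains, with each treated B6 mouse above each SLE123 mouse and a mean 2.85-fold that of treated SLE123.

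Prag1 (ENSMUSG00000050271, chr8:36094828-36147787, plus strand) was the member whose treated B6 level went below that of untreated SLE123. Untreated B6 mice had 10.2, 11.6 and 11.2 FPKM. After anti-CD45RB the B6 values were 4.92, 4.59 and 4.39 FPKM. The means were 11.0 ± 0.712 and 4.63 ± 0.268 FPKM (SD, n = 3), so that the treated level was 42.2% of the untreated one, a difference of -1.09 (SE 0.0706). Untreated SLE123 mice had 6.16, 5.29 and 5.08 FPKM, which is above all 3 treated B6 mice. Treated SLE123 mice had 4.76, 5.91 and 6.71 FPKM, and the lowest of them lay within the range of treated B6. Untreated SLE123 was at 50.3% of untreated B6, a difference of -0.88 (SE 0.1).

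Lypd6b (ENSMUSG00000026765, chr2:49787688-49948849, plus strand) stood at 12.7, 14.5 and 12.6 FPKM in untreated B6. Treated B6 mice had 7.22, 6.12 and 5.93 FPKM. The mean went from 13.3 ± 1.06 to 6.42 ± 0.699 FPKM (SD, n = 3), 48.4% of the untreated level and a difference of -0.94 (SE 0.0878). In untreated SLE123 the values were 4.66, 4.77 and 2.07 FPKM. Replicate 3 had less than the other mice of its group, and it is the library with the lowest naive T cell marker sum. Treated SLE123 mice had 3.38, 3.06 and 2.58 FPKM. All 6 SLE123 mice were below all 3 treated B6 mice, and untreated SLE123 was at 28.9% of untreated B6, a difference of -1.62 (SE 0.238).

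Slc16a5 (ENSMUSG00000045775, chr11:115462474-115474398, plus strand) had the highest level of the 4 genes in untreated B6, with 22.5, 21.5 and 26.9 FPKM. In treated B6 it was at 11.9, 11.9 and 11.6 FPKM. The treated mice were close together, with 11.8 ± 0.187 against 23.6 ± 2.86 FPKM in untreated B6 (SD, n = 3). The treated mean was 50.02% of the untreated mean, a difference of -0.94 (SE 0.081). SLE123 mice had 4.68, 3.98 and 2.26 FPKM untreated and 4.87, 4.74 and 4.24 FPKM treated. Every SLE123 mouse was again below every treated B6 mouse, and untreated SLE123 was at 15.4% of untreated B6, a difference of -2.44 (SE 0.205). The length behind its FPKM values, 2340.1 bases, matches that of a transcript annotated with a retained intron (2340 bases). For Prag1 and Lypd6b the length matches a coding transcript. For Tspan9 it is closest to a coding transcript but differs from it (3813.5 against 3819 bases).

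**Figure D1:**
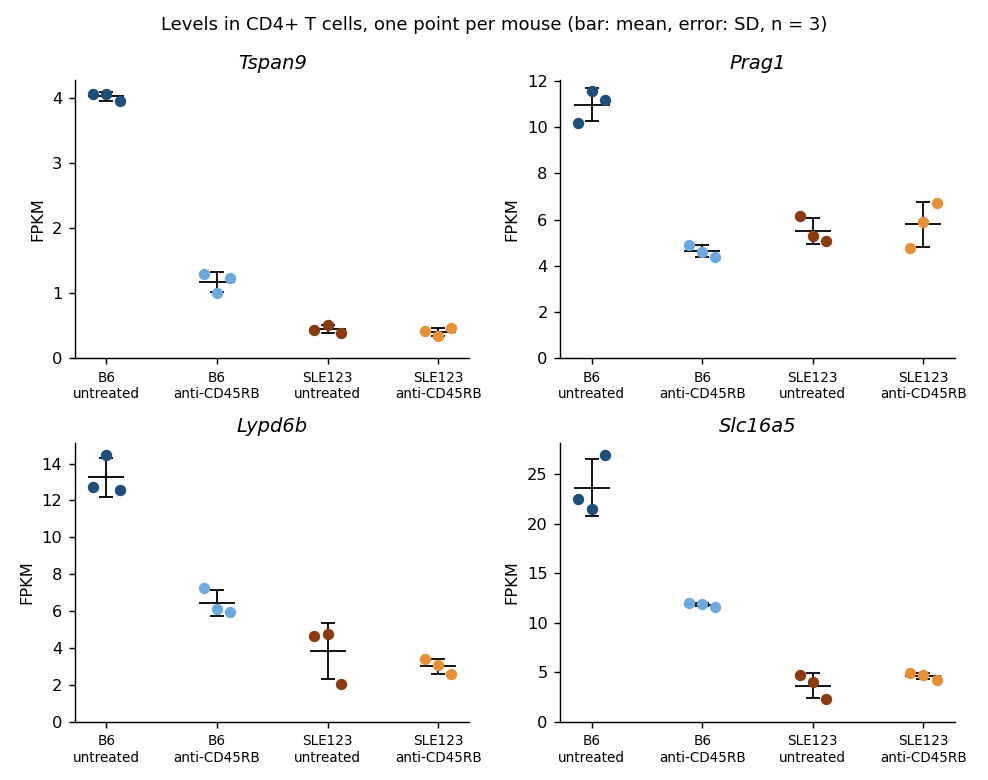
Level in FPKM (vertical axis, from 0) of each gene in the 4 groups, with 1 point per mouse, a bar at the mean and an error bar of 1 SD (n = 3). Untreated B6 mice lie above all other mice in each panel, and treated B6 lies above SLE123 for Tspan9, Lypd6b and Slc16a5 and below untreated SLE123 for Prag1.

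In bulk RNA, fewer cells that express a gene and less RNA per cell cannot be told apart, and this holds for every difference described here. Of the 13115 genes tested, 1948 passed an adjusted p of 0.05 in the B6 treatment comparison (limma, 14.9%), 802 of them lower after treatment (6.12%) and 1146 higher (8.74%). Between the untreated strains 5621 passed (42.9%), with 2990 higher (22.8%) and 2631 lower (20.1%) in SLE123. Both comparisons use the same 3 untreated B6 mice, so a high value in those mice lowers a gene in both. For the 4 genes these shares are printed for context, since the genes were chosen on the same comparisons.

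The fall in B6 covered different parts of the distance between the strains. On group means of log2(FPKM + 1), the treated B6 level of Tspan9 had moved 67.4% of the way from untreated B6 to untreated SLE123. For Lypd6b it had moved 58.4% and for Slc16a5 38.3% of that distance, and for Prag1 124%, past the SLE123 level. The share of Tspan9 depends on the added 1. With a pseudocount of 0.1 its differences were -1.70 in B6 and -2.92 between the strains, against -1.21 and -1.80. Tspan9 and Lypd6b were at most 50% of untreated B6 in each of the other 3 groups, 2 of 12 such genes among those tested. Treated SLE123 was at 10.2% of untreated B6 for Tspan9, 22.7% for Lypd6b, 19.5% for Slc16a5 and 52.8% for Prag1.

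An order by size of the B6 difference held 678 named protein-coding genes called lower (limma, adjusted p under 0.05) without overlap between the groups. Tspan9 was at position 1, Prag1 at 2, Lypd6b at 4 and Slc16a5 at 5. The members were chosen on this contrast, so their place in the order is a description and no test of them. The gene at position 3, H2-Q2, a class I histocompatibility gene whose reads are uncertain because of near-identical relatives, differed by -1.08 in B6 but was at 169% of untreated B6 in untreated SLE123, so it did not meet the second part of the choice. The gene just outside, Etfrf1, a regulator of an electron transfer flavoprotein, differed by -0.79, with treated B6 at 50.4% and untreated SLE123 at 90.0% of untreated B6.

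A ratio of the lowest untreated B6 mouse to the highest of the other 9 mice describes how far untreated B6 stood apart. It was above 1 for 991 genes (7.56% of those tested) and at least 1.5 for 10 genes. Tspan9 had the highest ratio of all genes tested, 3.06, followed by the T cell receptor segment B230359F08Rik at 1.83. Slc16a5 had rank 3 with 1.803, Lypd6b rank 5 with 1.74 and Prag1 rank 10 with 1.52. The ratio uses the same values that chose these 4 genes, so their ranks are a description and no test of them. The other genes of the 10, named after their values were seen, were Gm26888 (1.79), Car12 (1.73), Gm20069 (1.62), Ttc28 (1.53) and E030042O20Rik (1.53), of which Car12 encodes a carbonic anhydrase.

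**Figure D2:**
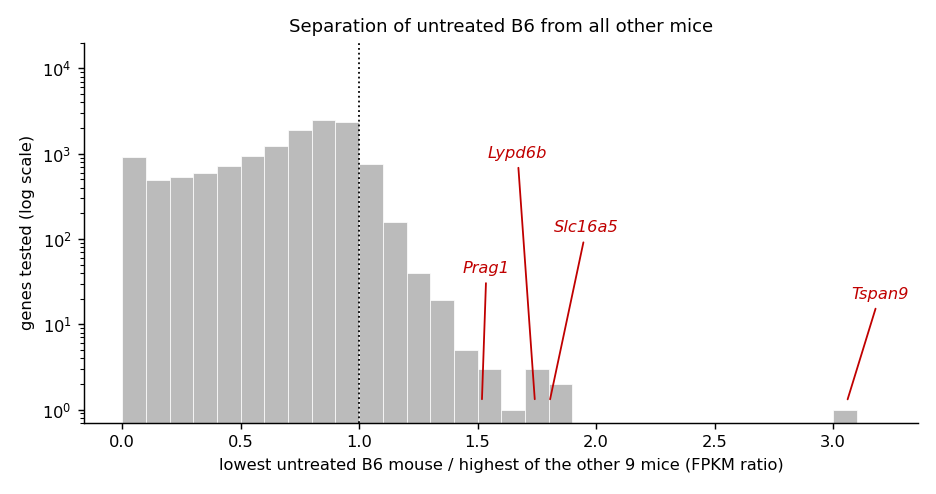
Number of genes (vertical axis, log scale) by the ratio of the lowest untreated B6 mouse to the highest of the other 9 mice in FPKM (horizontal axis), for the 13115 genes tested. The dotted line marks a ratio of 1. The 4 genes, chosen on these same values, lie at 1.52 to 3.06, with Tspan9 alone at the far right.

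Within SLE123, 0 of the 4 passed the test. The difference between treated and untreated SLE123 had no part in choosing the genes, although a low level in SLE123 did. Over all genes 5 passed (limma with Benjamini-Hochberg adjustment, 0.0381%), 2 higher (0.0152%) and 3 lower (0.0229%), and 1369 had an unadjusted p under 0.05. Tspan9 differed by -0.04 between treated and untreated SLE123 mice (SE 0.107, 95% interval -0.29 to 0.21, limma adjusted p = 0.903). Prag1 differed by 0.05 (SE 0.133, interval -0.26 to 0.37, limma adjusted p = 0.883). Tspan9 averaged under 0.5 FPKM in both SLE123 groups and was among the genes tested through its level in B6, so little room was left for a fall on this scale. Without treated replicate 1 or without untreated replicate 3, Tspan9 differed by -0.04 and -0.07 and Prag1 by 0.17 and 0.01. In Prag1 the sign rested on 1 mouse, since without treated replicate 3 the difference was -0.04.

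Lypd6b and Slc16a5 had wider intervals in SLE123. Lypd6b differed by -0.22 (SE 0.249, interval -0.81 to 0.37, limma adjusted p = 0.723), and Slc16a5 by 0.31 (SE 0.203, interval -0.17 to 0.79, limma adjusted p = 0.543). Without untreated replicate 3, Lypd6b differed by -0.52 (interval -0.82 to -0.22, limma unadjusted p = 0.00553, adjusted p = 0.436) and Slc16a5 by 0.08. Without untreated replicate 1, Slc16a5 differed by 0.48 (interval 0.0058 to 0.95, limma unadjusted p = 0.048, adjusted p = 0.202). Without treated replicate 1, the SLE123 library with liver transcripts, the values were -0.29 and 0.28. Neither gene passed the adjusted threshold in these fits, although these 2 intervals did not include 0. Whether the treatment effect differed between the strains was not tested, since the B6 effect chose the genes.

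The 3 protein-coding genes whose pattern over the 12 mice was most like that of each member were found by the root mean square difference of log2(FPKM + 1), after the mean of each gene was set to 0, among 10912 genes. For Tspan9 they were Lypd6b (0.243), Ggt5 (0.288) and Gabrr2 (0.319), and for Lypd6b they were Ggt5 (0.199), Gabrr2 (0.241) and Tspan9 (0.243). Ggt5, a gamma-glutamyltransferase, had mean levels of 14.2 FPKM in untreated B6, 9.18 in treated B6, 4.14 in untreated SLE123 and 4.44 in treated SLE123. Gabrr2, a GABA receptor subunit, had 8.12, 4.996, 1.56 and 1.73 FPKM in the same order. Both show the order seen for Tspan9, Lypd6b and Slc16a5, with treated B6 between untreated B6 and SLE123.

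Slc16a5 was closest to Gabrr2 (0.275), Rapgef4 (0.301) and Pdk1 (0.302). Rapgef4, which encodes a cAMP-activated exchange factor for Rap, was at 14.7, 10.8, 3.59 and 4.59 FPKM in untreated B6, treated B6, untreated SLE123 and treated SLE123. Pdk1, a kinase that inhibits pyruvate dehydrogenase, stood at 81.5, 70.0, 16.6 and 20.3 FPKM. These genes are far lower in SLE123 than in B6, and their treated B6 level stayed nearer to untreated B6 than that of Slc16a5.

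Prag1 had other companions. Its closest genes were Dtx1 (0.190), Cdh24 (0.190) and Rasal1 (0.213), and its distance to Tspan9, Lypd6b and Slc16a5 was 0.467, 0.539 and 0.786. Dtx1, a ubiquitin ligase of the Notch pathway, had means of 94.8 FPKM in untreated B6, 56.1 in treated B6, 55.8 in untreated SLE123 and 62.5 in treated SLE123. Cdh24, a cadherin, stood at 10.9, 6.95, 6.74 and 6.49 FPKM, and Rasal1, a Ras GTPase-activating protein, at 14.2, 8.56, 7.52 and 7.31 FPKM. In each of them treated B6 came close to SLE123. The 12 points of such a comparison share library, depth and group, and the likeness is a description of pattern.

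**Figure D3:**
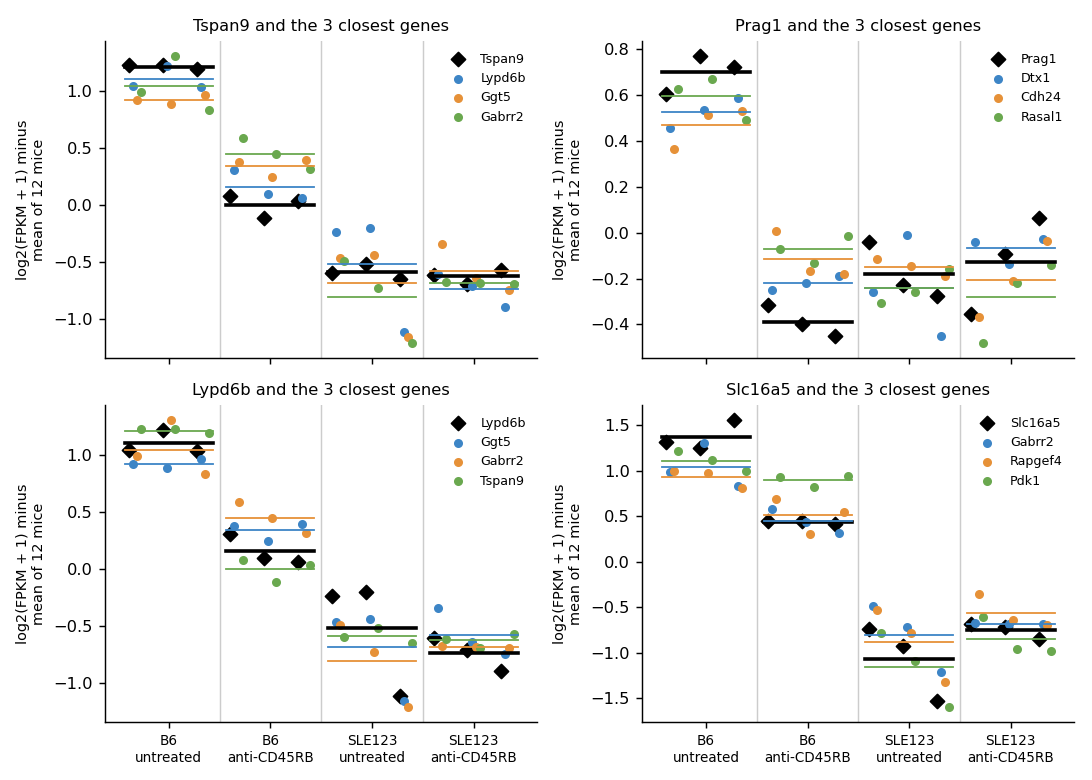
Each gene (black diamonds) and its 3 closest genes (coloured points), as log2(FPKM + 1) minus the gene's mean over the 12 mice, with 1 point per mouse and a line at each group mean. In the Prag1 panel the treated B6 means lie close to those of SLE123, below them for Prag1 and above them for Cdh24 and Rasal1, and in the other panels it lies between untreated B6 and SLE123.

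Counts for the relatives of the genes stand beside 6.12% of all tested genes lower and 8.74% higher in treated B6, and nothing particular to a family is read from them. Of 30 other tetraspanins, 21 were tested, and in treated B6 5 were higher and 1 was lower (limma), while their median difference was 0.19 against -0.002 over all genes. With each mouse left out in turn, 2 to 5 were higher and 1 lower. Cd63, a tetraspanin of lysosomes and secretory granules, rose from 0.866 ± 0.240 to 5.88 ± 1.75 FPKM (difference 1.86, SE 0.196, limma adjusted p = 0.00265). Rom1 (0.58), best known from photoreceptors, and Cd9 (0.51) rose as well. Tspan32, known from leukocytes, was the tetraspanin that fell, from 128 ± 1.16 to 98.3 ± 2.02 FPKM (-0.37, limma adjusted p = 0.000791). Between the untreated strains 14 tetraspanins were higher in SLE123 and 1, Cd53, was lower (-0.42), and with values rescaled to TPM these counts were 9 and 4.

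For Prag1, the list held its PEAK family relatives and the kinases and adaptors that they bind, 12 other genes of which 9 were tested. In treated B6 3 were higher, the Src-family kinase Lyn (1.27, limma adjusted p = 0.000773), Peak1 (0.32) and the adaptor Grb2 (0.18), and 1 was lower, Fyn (-0.14). Leaving out single mice left 1 to 2 higher and 0 lower. Lyn is also expressed in B and myeloid cells, whose markers rose in the same mice. Csk, the kinase that Prag1 binds, was at 156 ± 6.13 FPKM in untreated and 165 ± 1.16 FPKM in treated B6 (0.08, limma adjusted p = 0.161). Between the untreated strains Lyn (1.87) and Src (0.41) were higher in SLE123 and none was lower, whereas after rescaling to TPM 1 was higher and 5 were lower.

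Of 39 other Ly6/uPAR genes, 10 were tested. In treated B6 5 were higher and 0 were lower, with a median of 0.45. Ly6c2, found on memory and effector T cells and on monocytes, rose from 7.204 ± 1.03 to 30.9 ± 5.65 FPKM (1.95, limma adjusted p = 0.000773), and Ly6d (1.66), Ly6c1 (0.90) and Plaur (0.89), the urokinase receptor, rose as well. Ly6c1 and Ly6c2 are near-identical copies, and the split of reads between them is uncertain. Without single mice 3 to 6 were higher. Between the untreated strains 5 were higher in SLE123, with Ly6d, a gene of B cells, at 4.38, and Ly6c1 was lower (-2.35), and in TPM the counts were 5 and 2. In contrast, of 7 other tested SLC16 transporters and chaperones, from a list of 15, none was called in B6 in the limma fit, although 4 had an unadjusted p under 0.05 and voom called 2 higher and 1 lower. The lactate exporter gene Slc16a3 (1.30), the chaperone Bsg (0.68) and Slc16a10 (0.54) were higher in untreated SLE123 and the chaperone Emb was lower (-0.51), and with TPM 1 was higher and 3 were lower.

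**Figure D4:**
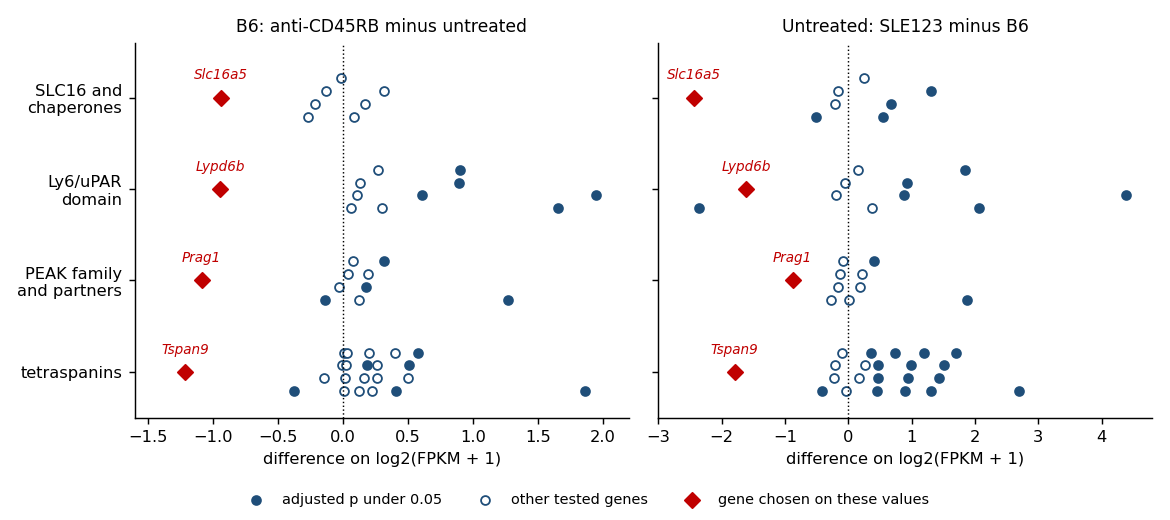
Differences on log2(FPKM + 1) (horizontal axis) of the tested genes of each family, with filled points for genes past an adjusted p of 0.05 in limma and open points for the others. The red diamonds, chosen on these values, lie below 0 in both comparisons, whereas their relatives lie on both sides of 0, with 0 or 1 called lower in B6 per family.

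The members do not lie near one another, and none is on chromosome 1, 4 or 7, which carry Sle1, Sle2 and Sle3. Around Tspan9, Tspan11 was listed at 0 in all libraries and Tead4 was at most 0.0397 FPKM. Next to Prag1, Lonrf1 had a difference of -0.04 in B6 (limma adjusted p = 0.747) and 0.04 between the untreated strains. Beside Lypd6b, the motor protein gene Kif5c was higher in untreated SLE123 than in untreated B6 (1.32, limma adjusted p = 0.000208), opposite to Lypd6b, and its paralog Lypd6 was nearly silent, with at most 0.0204 FPKM. Armc7, 1.269 kb from Slc16a5, was lower in untreated SLE123 (-0.59, limma adjusted p = 0.0117) and had -0.12 in B6 (limma adjusted p = 0.147).

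Slc16a5 shares part of its span with Gm11695, an antisense gene on the minus strand at chr11:115462045-115463454, over 981 bases. Whether the libraries keep strand is not stated, so reads of the overlap cannot be assigned to either gene with certainty. Gm11695 was at 13.7, 11.8 and 15.7 FPKM in untreated B6, 8.70, 7.05 and 7.45 in treated B6, 5.65, 2.37 and 2.29 in untreated SLE123 and 5.25, 4.30 and 3.22 in treated SLE123. It follows the order of Slc16a5, on 18 to 103 fragments per library against 125 to 1013 for Slc16a5. Of the stretches of 50 bases in Slc16a5 transcripts, 1.49% also occur in another gene, and for the other members there were none.

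Markers of other cells moved with both comparisons. In B6, the sum of 9 myeloid markers was 4.62 to 9.76 FPKM in untreated and 51.4 to 116 FPKM in treated mice, with 6 of 6 tested markers higher (limma) and Ly6g at or near 0. The sum of 9 B cell markers went from 6.50 to 7.94 FPKM to 27.2 to 35.8 FPKM, with 6 of 7 tested markers higher. Platelet markers, which bear on Tspan9 as a platelet gene, summed to 47.9 to 51.4 FPKM in untreated and 66.3 to 79.5 FPKM in treated B6, with 4 of 4 tested markers higher and Itgb3 as most of the sum. In B6 they moved opposite to Tspan9. The CD4+ T cell markers summed to 3129 to 3250 FPKM in untreated and 2844 to 2905 FPKM in treated B6, with 4 of 9 lower (1 to 2 with single mice left out) and a median difference of -0.13, against -0.94 to -1.21 for the members. Of 6 listed NKT and gamma delta markers 4 were found, and the gamma delta genes Trgc1 and Trdc were not among them. The 4 found summed to 24.1 to 25.1 FPKM in untreated and 38.9 to 56.2 FPKM in treated B6. Klrk1 (1.08) and Ncr1 (2.32), both also genes of natural killer cells, were higher (limma), whereas Zbtb16 (0.17) and Klrb1c (0.53) were not called. The rise of this sum therefore does not tell NKT cells from natural killer cells. CD8 markers were at 11.1 to 13.04 FPKM in untreated and 12.7 to 19.4 FPKM in treated B6. The part of these cells in the lower levels of the members in treated B6 was not tested.

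The sum of the naive T cell markers did not fall with the members in B6. It was 2279 to 2392 FPKM in untreated and 2325 to 2448 FPKM in treated mice, with 1 of 8 higher and 2 lower. The higher one was Klf2 (212 to 353 FPKM), whereas Ccr7 (246 to 208 FPKM) and Tcf7 (843 to 727 FPKM) were lower, so the sum hides opposite changes. Activated or memory markers summed to 243 to 278 FPKM in untreated and 398 to 477 FPKM in treated B6, with 3 of 12 higher and 1 lower and most of the rise from the chemokine Ccl5 (57.5 to 200.2 FPKM), and regulatory T cell markers to 48.9 to 62.3 FPKM and 59.4 to 69.0 FPKM. Liver markers did not move with the members in B6 either, at 52.7 to 55.6 FPKM in untreated and 46.4 to 54.9 FPKM in treated mice, with 0 of 8 called (limma, 1 at an unadjusted p under 0.05).

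Between the strains, naive markers were lower in SLE123 together with the members. They summed to 824 to 1441 FPKM in untreated and 1333 to 1627 FPKM in treated SLE123, with 7 of 8 lower than in B6 among untreated mice. Activated or memory markers were at 721 to 745 FPKM, with 11 of 12 higher, regulatory markers at 204 to 219 FPKM, with 6 of 7 higher, and plasma cell markers at 1949 to 5037 FPKM, with 6 of 6 higher. Erythroid markers were at 30.2 to 49.6 FPKM in untreated SLE123 against 0.76 to 2.202 FPKM in untreated B6. The part of this composition in the lower levels of the members in SLE123 was not tested. The platelet marker sum was 21.4 to 22.1 FPKM in untreated SLE123, below untreated B6, with 2 of 4 tested markers higher and 1 lower. Itgb3, most of the sum, was the lower one (-1.74), whereas Pf4 (1.49) and Itga2b (0.62) were higher. The sum therefore follows Itgb3 and hides opposite changes. Liver markers were lower in untreated SLE123 for 8 of 8 tested. In treated SLE123 replicate 1, which has liver transcripts at the B6 level (52.3 FPKM), Tspan9, Lypd6b and Slc16a5 were at 0.420, 3.38 and 4.87 FPKM, below all B6 mice. Prag1 was at 4.76 FPKM there, within the range of treated B6. This is 1 library, and the part of what brought the liver transcripts in the levels of the members was not tested.

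**Figure D5:**
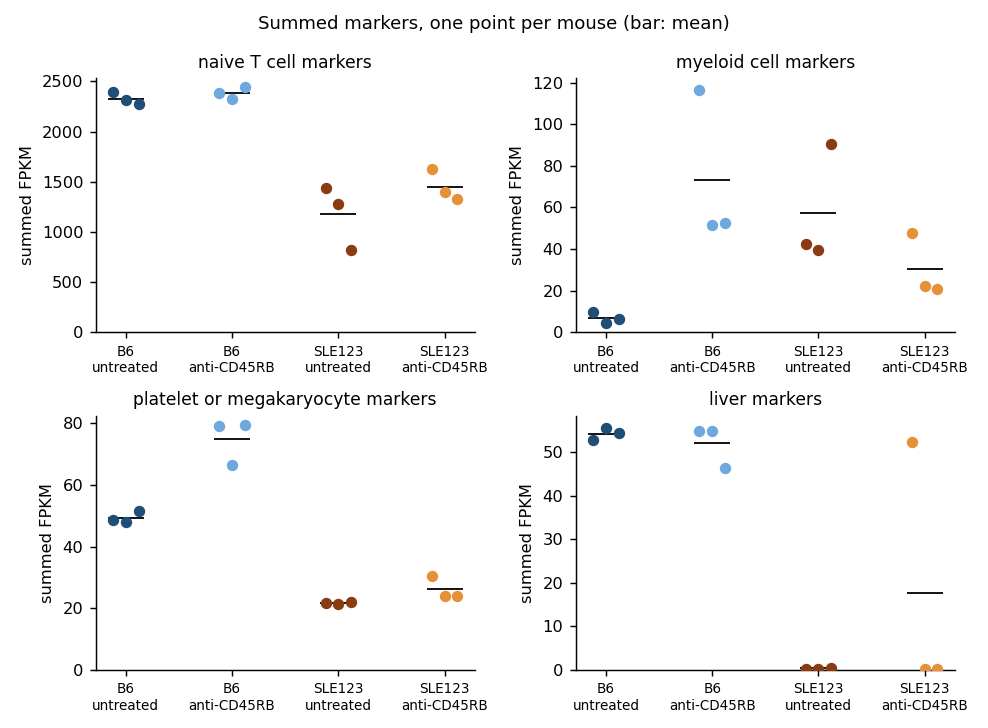
Summed FPKM (vertical axis, from 0) of naive T cell, myeloid, platelet and liver markers in the 4 groups, with 1 point per mouse and a bar at the mean. Most of the platelet sum is Itgb3. Naive markers are similar in both B6 groups and lower in SLE123, myeloid and platelet markers are higher in treated than in untreated B6, and 1 treated SLE123 mouse is at the B6 level of liver markers.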

How the data were processed

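The authors deposited FPKM values per Ensembl gene and library, and the submitters' processing notes name CASAVA 1.8, STAR and mm10. No settings, annotation release or counting program are given in the sources used here. Of the gene identifiers, 97.8% were found in GENCODE M21 (GRCm38), which gave symbols and coordinates. FPKM values came out as whole multiples of the value of 1 fragment, within 0.02 fragments, for 100% of 23230 genes above 0, and the fragments per gene were recovered from them. The precision such fragments give covers counting error alone, because the reads carry no molecular identifiers. Promoter windows came from RefSeq.

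Values were tested as log2(FPKM + 1) in limma 3.58.1 (R 4.3.3; lmFit, eBayes with a trend) on the 6 mice of each of 3 comparisons, with Benjamini-Hochberg adjustment over 13115 genes and a threshold of 0.05. The fit was tested on simulated data. P-values set each difference against the spread between the mice of that comparison, which limma moderates with the spread of the other genes. The 4 genes, the family and marker lists and the rules were chosen with earlier results of these data known. Genes were named by rule: the members, their neighbours in the order of the fall and on the chromosome, their 3 closest genes, Ptprc, and up to 4 called genes per family with the largest difference. The genes named beside these, such as the markers, Csk, Fyn, Peak1, Grb2 and the genes with the widest separation, were chosen after their values were seen. The fits were repeated with a smaller pseudocount (0.1), with no filter or one at 1 FPKM, after TPM or median centring, by voom on the recovered fragments, on all 12 mice at once, with replicate as a block and without each mouse in turn.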

Additional observations from a re-analysis of the deposited data

How the results depend on the processing

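The 4 genes kept the direction of their differences in B6 and between the untreated strains under every alternative run. Genes chosen for a large difference in these same mice are likely to keep its direction, so this is no test of them. No member passed the test within SLE123 in any fit, where few genes passed at all, 5 of 13115 (0.0381%) in the main fit. Sizes moved by more than the spread between mice with a pseudocount of 0.1, where Tspan9 was at -1.70 in B6 and -2.92 between the strains and Prag1 at -1.22 in B6, and with voom on recovered fragments, where these values were -1.78, -3.17 and -1.25. With TPM, Tspan9 was at -1.49 in B6 and -2.55 between the strains, Prag1 at -1.18 and -1.29, and Slc16a5 at -2.94 between the strains. Rescaling to TPM also moved the median of all genes from -0.03 to -0.38 between the strains and from 0.04 to 0.22 in SLE123, and 24.3% instead of 53.2% of the calls between the strains were higher. Within SLE123, Tspan9 changed sign with TPM (0.029), and Prag1 ranged from -0.043 without treated replicate 3 to 0.17 without treated replicate 1.

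The number of genes called in B6, 1948, was 1134 with no filter, 815 with all 12 mice in one fit and 675 to 1393 with each mouse left out, the lowest values being 675 without untreated replicate 4, 844 without treated replicate 5 and 848 without untreated replicate 3, and 1109 without treated replicate 3. The share of B6 calls that were higher was 58.8%, and it was 68.5% with all 12 mice in one fit. It ranged from 56.7% with the filter at 1 FPKM to 72.9% without untreated replicate 4. In SLE123, the 5 genes called were 21 with TPM, 3 with voom, 53 with all 12 mice in one fit and 1 to 7 with each mouse left out, with 1 without treated replicate 2 or 3 or untreated replicate 1 or 2. Between the untreated strains, 5621 became 3672 to 6469 with each mouse left out, with 3672 without untreated B6 replicate 4 and 3710 without replicate 3. With the replicate number as a block, 0 genes were called in B6 (2466 at an unadjusted p under 0.05) and 4 in SLE123. The B6 groups share only the numbers 3 and 5, so the block fit in B6 leaves little to measure the spread with. Same-numbered mice did not deviate together, with correlations of -0.14 and -0.094 in B6 and 0.137, -0.161 and 0.266 in SLE123, so the numbers were not read as pairs, and the untreated strains share 1 number, too few for a block. The cause of these changes was not tested. Depth limited Tspan9 most, with 25 to 37 fragments in each SLE123 library.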
